A study of Mus musculus with 31 samples.

Results

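The transcripts of Myc, its partner Max and a set of nucleolar ribosome biogenesis genes (Ncl, Npm1, Fbl, Nop56, Dkc1, Nolc1 and Bop1) were followed after neuromedin U (NmU) treatment of D10.G4.1 cells. All probe sets paired with 1 of these 9 gene symbols alone in the platform's annotation were taken. They numbered 10 of the 12422 probe sets of the array, and all 10 passed the filter on low signal that kept 7930 probe sets for testing. The dim probe set of Bop1 passed through the NmU 3 h group alone. The 10 probe sets covered 8 of the 9 genes. Nop56 and Bop1 had a bright and a dim probe set each, the other 6 genes had 1 each, and no probe set was paired with Dkc1.

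D10.G4.1 is a mouse CD4+ T cell line of the type 2 helper (Th2) kind, and it is a single clone. The cells received either phosphate-buffered saline (PBS), the control, or NmU, a neuropeptide that acts through G protein-coupled receptors, and total RNA was taken at 0.8, 3, 6 and 12 h. There were 31 arrays in 8 groups, with 3 arrays for NmU at 3 h and 4 for every other group. The labels give neither the dose of NmU nor the origin of replicates (1 culture or several), so the p-values cover only array-to-array spread, part or all of which may be technical. Most T helper markers fitted the labelled cell type. Cd4, Cd3e, Cd3d, Cd3g, Cd28, Zap70, Ptprc and Gata3 were above the filter in median signal, whereas Thy1, Cd5 and Cd2 were not, and Cd8a and Cd8b1 lay at or below the floor of the signal scale on 26 and 25 of 31 arrays.

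Myc is a basic helix-loop-helix transcription factor that binds DNA as a dimer with Max, and its transcript and protein are both short-lived. Myc is an immediate early gene of T cell activation. Among its best known targets are genes of ribosome biogenesis, the assembly line in the nucleolus on which RNA polymerase I makes ribosomal RNA, small nucleolar ribonucleoproteins (snoRNPs) modify it, and large sets of assembly factors fold it into the small and the large subunit. The nucleolar proteins studied here include chaperones (nucleolin and nucleophosmin), core proteins of the box C/D snoRNP that methylates ribosomal RNA (fibrillarin and Nop56), the pseudouridine synthase of the H/ACA snoRNP (Dkc1), the snoRNP chaperone Nolc1, and Bop1, a large subunit assembly factor that acts with Pes1.

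The hexamer CACGTG, the E-box to which dimers of Myc and Max are known to bind, was looked for in RefSeq promoters of build GRCm38.p6. Each spans 250 bases before to 50 bases after an annotated start, and 5 of the 9 genes had an entry (Max, Ncl, Nop56, Nolc1 and Dkc1). The hexamer is its own reverse complement, so that 1 search covers both strands. Of these 5 promoters, that of Max held it, from base -3 to base 3 around the start, where base 1 is the first of the transcript. The stretches from 130 bases before to 10 after the start are shown for the 4 of these genes that the array measures, with the hexamer in capitals where present, to set the promoter of Max beside those of 3 nucleolar genes without it.

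Max (chr12:76962239-76962378, minus strand): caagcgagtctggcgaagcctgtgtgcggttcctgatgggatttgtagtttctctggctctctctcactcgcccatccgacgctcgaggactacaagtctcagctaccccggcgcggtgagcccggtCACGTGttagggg
Ncl (chr1:86359446-86359585, minus strand): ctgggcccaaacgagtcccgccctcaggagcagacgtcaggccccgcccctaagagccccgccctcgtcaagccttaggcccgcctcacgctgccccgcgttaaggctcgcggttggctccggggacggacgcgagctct
Nop56 (chr2:130274282-130274421, plus strand): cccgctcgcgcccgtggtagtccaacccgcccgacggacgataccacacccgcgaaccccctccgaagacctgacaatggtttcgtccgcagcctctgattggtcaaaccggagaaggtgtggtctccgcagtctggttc
Nolc1 (chr19:46075717-46075856, plus strand): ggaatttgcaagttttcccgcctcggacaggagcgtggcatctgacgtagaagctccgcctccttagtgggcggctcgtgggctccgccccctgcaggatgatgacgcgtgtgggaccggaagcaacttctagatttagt

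The hexamer was present in at least 1 promoter of 8.09% of all 27025 genes with an entry. Promoters with an E-box were found for 26 of 127 other ribosome biogenesis genes (20.5%), and for 7 of the 17 with an entry among those called higher with NmU at 3 h (41.2%). The hexamer contains a CpG, and the median number of CpG dinucleotides per promoter was 7 over all promoters and 22 in both of these sets, so the shares are not matched for base composition. They describe the letters in these windows and not binding. The 17 are part of the 127 and were picked by calls in these data that changed with the fit. The difference between the shares of the 17 and the 127 was not tested. From the called genes, Imp4 (a small subunit factor) and Nmd3, Nop2 and Pes1 (large subunit factors) are shown over the same stretch, since the hexamer falls within it.

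Imp4 (chr1:34439699-34439838, plus strand): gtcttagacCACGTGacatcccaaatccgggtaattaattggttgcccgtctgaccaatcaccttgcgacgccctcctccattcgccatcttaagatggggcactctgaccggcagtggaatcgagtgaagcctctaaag
Nmd3 (chr3:69721925-69722064, plus strand): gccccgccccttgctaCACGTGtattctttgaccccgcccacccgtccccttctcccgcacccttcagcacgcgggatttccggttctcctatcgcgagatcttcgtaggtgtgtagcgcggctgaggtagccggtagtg
Nop2 (chr6:125131753-125131892, plus strand): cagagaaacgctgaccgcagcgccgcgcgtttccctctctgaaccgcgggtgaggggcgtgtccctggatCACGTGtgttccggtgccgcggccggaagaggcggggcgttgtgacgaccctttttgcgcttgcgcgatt
Pes1 (chr11:3963845-3963984, plus strand): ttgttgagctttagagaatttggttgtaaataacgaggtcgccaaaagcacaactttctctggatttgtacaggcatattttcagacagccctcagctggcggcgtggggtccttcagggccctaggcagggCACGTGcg

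One PBS array had the lowest correlation with its group and touches every value at 3 h. PBS 3 h replicate 4 had the lowest mean correlation with its own group of the 31 arrays (0.956), and correlated best with the PBS 0.8 h group. That alone does not set it apart, since 11 of the 31 arrays correlated best with a group other than their own, among them the 3 other PBS 3 h arrays (with PBS 6 h). A measure of RNA quality moved with it: the ratio of the 3′ to the 5′ Gapdh control probe set was 0.917 on this array, 0.737 to 0.819 on the other 3 PBS 3 h arrays and 0.843 to 0.943 on the 3 NmU arrays of that time. The Actb ratio was 1.17, 0.965 to 1.07 and 1.09 to 1.19 in the same order. At 0.8, 6 and 12 h the ranges of both ratios overlapped between NmU and PBS. The members' 3 h values are given with and without this array. The log2 Gapdh ratio was also used as a covariate, a setting chosen after the data were seen. Its 3 h values are given for named list genes whose call it changed and for the members together. Without PBS 3 h replicate 4, the Gapdh ratio did not overlap between PBS and NmU at 3 h. A call lost with the covariate then cannot be assigned to the ratio or to NmU, since the design does not tell them apart.

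Myc was the one gene of the 8 measured whose transcript rose with NmU over all arrays, and it did so at 12 h. Its probe set was brighter on every NmU array than on every PBS array at 0.8, 6 and 12 h. How many of all probe sets were without overlap was not counted. Here and below, a lack of overlap only describes the arrays and is no test. At 12 h the mean signal was 1.79-fold that of PBS by the fit, the largest difference among the 4 times. The mean PBS signal was highest at 0.8 h, and the mean NmU signal was lower at 3 and 6 h than at 0.8 and 12 h.

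At 0.8 h, the Myc signal (probe set 104712_at) was 357.2, 359.5, 374.9 and 334.6 on the 4 PBS arrays and 412.5, 538, 492.4 and 401.5 on the 4 NmU arrays. The groups did not overlap. The mean was 357 ± 16.6 (SD, n = 4) in PBS and 461 ± 65.3 (SD, n = 4) with NmU, and limma gave a log2 fold change of 0.36 ± 0.16 (SE) with an adjusted p of 0.647, so that Myc was not called at the first time. Called means an adjusted p under 0.05 by the Benjamini-Hochberg method over all 7930 probe sets, in 1 limma model of all 8 groups. Of all probe sets, 0.782% were called higher and 0.0631% lower at 0.8 h, against 0 of the 10 studied here, of which 1 (Myc) had an unadjusted p under 0.05 (0.0305).

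At 3 h, Myc signals were 202.6, 208.6, 208.9 and 379.9 on the PBS arrays and 360.2, 276.8 and 278.3 on the NmU arrays. The highest value of that time came from PBS replicate 4, and the 3 other PBS arrays all lay below the 3 NmU arrays. With all arrays, the log2 fold change was 0.33 ± 0.17 (SE, limma adjusted p = 0.238). Without PBS replicate 4, the PBS mean was 207 ± 3.55 (SD, n = 3) against 305 ± 47.7 (SD, n = 3) with NmU, and the log2 fold change was 0.55 ± 0.14 (limma adjusted p = 0.00828), which is a call. With the Gapdh ratio as a covariate the value was 0.22 over all arrays (limma adjusted p = 0.52) and 0.50 without that array (limma adjusted p = 0.0509), just beyond the threshold.

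At 6 h, Myc signals were 187.1, 205.8, 223.2 and 212 with PBS and 318.2, 229.2, 298.8 and 359.3 with NmU. The groups did not overlap, although NmU replicate 2 came within a few units of the highest PBS array. The means were 207 ± 15.1 and 301 ± 54.3 (SD, n = 4 each), and the log2 fold change was 0.53 ± 0.16 (limma adjusted p = 0.0524), just short of a call. Since the fit shares its spread over all groups, leaving out PBS 3 h replicate 4 left the 6 h fold change as it was and brought the adjusted p to 0.00658.

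At 12 h, Myc signals were 209.9, 242.4, 249.2 and 207.5 with PBS and 378, 430, 436 and 382.1 with NmU. All 4 NmU arrays lay far above the 4 PBS arrays. The means were 227 ± 21.6 and 406.5 ± 30.7 (SD, n = 4 each), and the log2 fold change was 0.84 ± 0.16 (limma adjusted p = 0.00315), with a 95% interval from 0.52 to 1.17. The call held when any 1 of the 31 arrays was left out, with values from 0.80 to 0.89. At this time 0.858% of all probe sets were called higher and 0.404% lower.

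**Figure D1:**
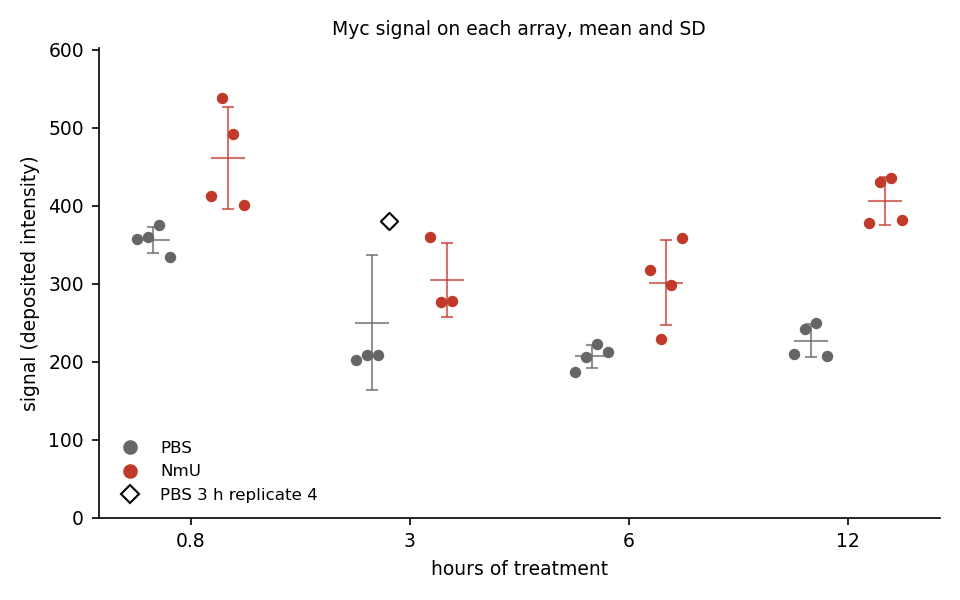
Signal of the Myc probe set (deposited intensity, linear axis from 0) on each of 31 arrays against hours of treatment, with PBS in grey and NmU in red; points are arrays, bars are the group mean and SD, and the open diamond is PBS 3 h replicate 4. NmU lies above PBS without overlap at 0.8, 6 and 12 h, and at 3 h the diamond, at 379.9, is the only PBS array above any NmU array.

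In order of mean signal, the Myc groups ran from NmU 0.8 h (461) through NmU 12 h (406.5), PBS 0.8 h (357), NmU 3 h (305), NmU 6 h (301), PBS 3 h (250, or 207 without replicate 4) and PBS 12 h (227) to PBS 6 h (207). Neighbours in this order overlapped in their array values, except NmU 12 h and PBS 0.8 h. When its replicate 4 was left out, PBS 3 h came last with PBS 6 h, and NmU 6 h overlapped with its next neighbour, PBS 12 h. A test over the 4 times together called Myc (limma F test, adjusted p = 3.95e-04), as it did 11.6% of all probe sets, and called none of the other 9 probe sets of this set, whose adjusted p ran from 0.533 to 0.869. The effect of NmU on Myc was not shown to differ between neighbouring times. In log2 units it differed by -0.03 ± 0.23 between 3 and 0.8 h, by 0.19 ± 0.23 between 6 and 3 h and by 0.32 ± 0.22 between 12 and 6 h (SE; adjusted p = 0.966, 0.848 and 0.75 in limma). Such differences between times were called for 3.29%, 0.719% and 0.101% of all probe sets in that order, and for none of the 10 studied here, of which 0 had an unadjusted p under 0.05 either.

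The time course in PBS alone was tested as well. With all arrays Myc was not called (limma F test, adjusted p = 0.258), and 0.0126% of all probe sets were, which is 1 of 7930. Without PBS 3 h replicate 4, Myc was called (limma F test, adjusted p = 0.00423) in a background of 0.0252%, or 2 of 7939 probe sets. The PBS means were then 357 at 0.8 h, 207 at 3 h, 207 at 6 h and 227 at 12 h.

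Max, the obligate partner of Myc, differed little between groups. Its signal (99095_at) at 3 h was 435.8, 468.7, 418.2 and 349.9 with PBS and 405.6, 481.6 and 502.5 with NmU, and these overlapped. PBS replicate 4 was the lowest of the 7, the opposite of its place for Myc. The group means of Max ran from 408 ± 25 (SD, n = 4, PBS 6 h) to 463 ± 51 (SD, n = 3, NmU 3 h). Its log2 fold change was between 0.03 and 0.15 at the 4 times, with limma adjusted p from 0.363 to 0.985, and the 0.15 at 3 h became 0.07 without PBS replicate 4 (limma adjusted p = 0.712). Its 95% interval at 12 h ran from -0.16 to 0.21, below the 0.84 of Myc.

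The other factors of the Myc network were described from a list of 17 genes, of which 14 were on the array and 11 were tested. At 3 h, 2 of the 11 were called lower and 2 higher, against 5.73% and 4.44% of all probe sets, and at 0.8, 6 and 12 h none was called. Their median log2 fold change at 3 h was 0.05, against -0.03 for all probe sets tested. The count called higher and this median include Zbtb17, which passed the filter on low signal through NmU 3 h alone. That group is the one in which it was high, so the count called higher is no support. The 2 that fell, Mxd3 and Mxd4, encode proteins that compete with Myc for Max and repress transcription.

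Mxd3 signals at 3 h were 169.1, 205.1, 137.8 and 222.7 with PBS and 99.2, 95.5 and 105.6 with NmU. Every NmU array lay below every PBS array, and the log2 fold change was -0.85 ± 0.18 (SE, limma adjusted p = 0.00255). For Mxd4 the values were 267.8, 275.6, 276.9 and 182.7 with PBS and 119.1, 128.5 and 169 with NmU, and the log2 fold change was -0.85 ± 0.21 (limma adjusted p = 0.00879). The groups did not overlap for Mxd4 either, and PBS replicate 4 was the PBS array nearest to NmU. Without that array the values were -0.75 for Mxd3 (limma adjusted p = 0.00987) and -0.99 for Mxd4 (limma adjusted p = 0.00273), both still called. With the Gapdh ratio as a covariate they were -0.92 and -0.63 over all arrays (limma adjusted p = 0.00265 and 0.0396) and -0.80 and -0.73 without that array (0.0259 and 0.0461). With only the 2 groups in the fit, 0 network genes were called lower. The effect on Mxd3 differed between 3 and 0.8 h by -1.003 ± 0.25 (limma adjusted p = 0.0228), while for Mxd4 this difference was not called (-0.88 ± 0.29, adjusted p = 0.104 in limma).

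The 2 network genes called higher at 3 h were dimmer. Fbxw7, which marks Myc protein for degradation as part of a ubiquitin ligase, had a mean of 34.9 ± 5.97 (SD, n = 4) with PBS and 54.8 ± 11 (SD, n = 3) with NmU and a log2 fold change of 0.65 ± 0.18 (limma adjusted p = 0.0219). Zbtb17 (Miz-1), through which Myc represses genes, had 13.8 ± 4.02 and 22.7 ± 5.16 and a log2 fold change of 0.74 ± 0.22 (limma adjusted p = 0.027). Zbtb17 passed the filter, which asks for 20.2, through NmU 3 h alone, the group in which it was high, so its call supports nothing. With the Gapdh ratio as a covariate, Fbxw7 had 0.39 (limma adjusted p = 0.0717) and Zbtb17 0.63 (0.0866), and neither was called. On leaving out PBS 3 h replicate 4 as well, they had 0.34 (limma adjusted p = 0.216) and 0.84 (0.0402). With 1 array left out in turn, 0 to 2 network genes were called higher (0 without PBS 3 h replicate 3 and without NmU 3 h replicate 1, 1 without PBS 3 h replicate 1 or 2 and without NmU 3 h replicate 2 or 3) and 1 to 2 lower (1 without NmU 3 h replicate 1).

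**Figure D2:**
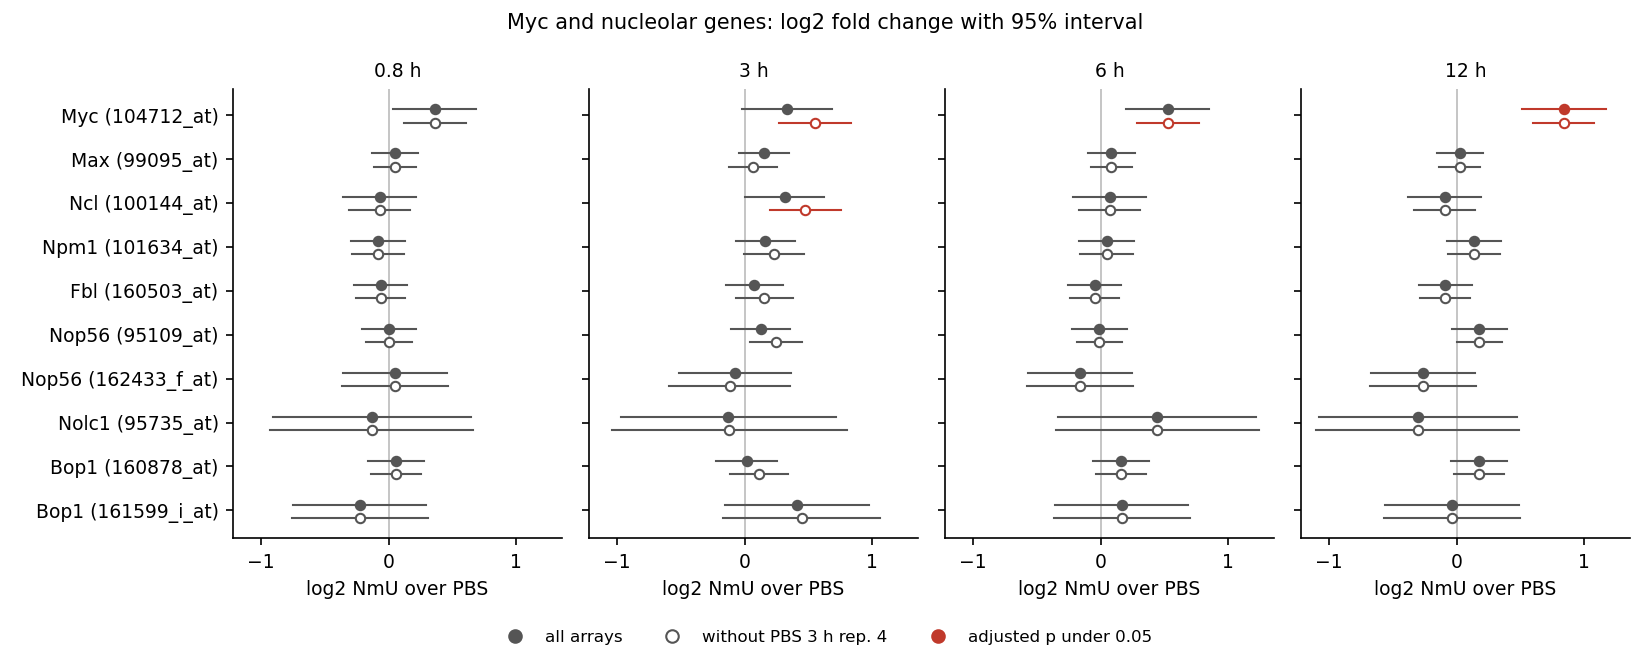
Log2 fold change of NmU over PBS (x axis) with its 95% interval for each of the 10 probe sets (rows) at the 4 times (panels), over all arrays (filled) and without PBS 3 h replicate 4 (open); red marks an adjusted p under 0.05. Over all arrays only Myc at 12 h is red, and without that array Myc is also red at 3 and 6 h and Ncl at 3 h.

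None of the 9 probe sets of Max and the nucleolar genes was called by limma at any time with all arrays. The count of all 10 was 0, 0, 0 and 1 higher and 0 lower at 0.8, 3, 6 and 12 h, and 1 of the 10 had an unadjusted p under 0.05 at each time (Ncl at 3 h and Myc at the others). At 6 h, 2.85% of all probe sets were called higher and 2.03% lower. The median log2 fold change of the 10 was -0.03, 0.14, 0.08 and -0.00 at the 4 times, against -0.04, -0.03, 0.02 and -0.02 for all probe sets tested. Leaving out the dim Bop1 probe set, which passed the filter through NmU 3 h alone, the medians of the other 9 were 0.00, 0.13, 0.07 and 0.03, and 7 of the 9 were above 0 at 3 h. Without PBS 3 h replicate 4, 2 of 10 were called higher at 3 h (Myc and Ncl) against 4.98% of all probe sets, and Myc alone was called at 6 h (background 3.59%) and at 12 h (background 1.07%). A p that misses the threshold does not show that a transcript stayed level.

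Ncl (nucleolin) was the nucleolar gene whose call turned on PBS 3 h replicate 4. Its signals (100144_at) at 3 h were 3338.6, 3259.1, 3085.3 and 5066.2 with PBS and 5069.2, 3883.7 and 4591.7 with NmU. PBS replicate 4 reached the level of the highest NmU array, and the 3 others lay below all NmU arrays. The log2 fold change was 0.31 ± 0.15 over all arrays (limma adjusted p = 0.197) and 0.48 ± 0.13 without that array (limma adjusted p = 0.0194), a 1.39-fold difference. With the Gapdh ratio as a covariate and without that array it was 0.29 and was no longer called (limma adjusted p = 0.207).

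At the other times Ncl showed no such difference. At 0.8 h the means were 4119 ± 181 with PBS and 3944 ± 413 with NmU, at 6 h 3607 ± 401 and 3781 ± 325, and at 12 h 3707 ± 166 and 3530 ± 682 (SD, n = 4 each). The groups overlapped at each of these times, and the log2 fold changes were -0.07, 0.07 and -0.09. Without PBS 3 h replicate 4, the effect on Ncl at 3 h exceeded that at 0.8 h by 0.54 ± 0.18, which was not called (limma adjusted p = 0.0799).

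Npm1 (nucleophosmin), the other chaperone, ran in the same direction at 3 h without passing the test. Its signals (101634_at) were 2645.4, 3325.2, 3375.7 and 3736.9 with PBS and 3955.6, 3344.1 and 3631 with NmU, which overlapped with and without PBS replicate 4. The log2 fold change was 0.16 ± 0.11 over all arrays (limma adjusted p = 0.41) and 0.23 ± 0.12 without that array (limma adjusted p = 0.213). At 0.8, 6 and 12 h it was -0.08, 0.05 and 0.14. Npm1 has many processed pseudogenes, and whether the probes tell them apart was not tested.

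The box C/D proteins were the next group. Fbl (fibrillarin), the methyltransferase of the snoRNP, gave signals (160503_at) of 1937.5, 1509.5, 1634.5 and 2088.3 with PBS and 1956.6, 1859.8 and 1811 with NmU at 3 h, a full overlap. Its log2 fold change was 0.08 ± 0.11 with all arrays and 0.15 ± 0.11 without PBS replicate 4 (limma adjusted p = 0.737 and 0.408), and it was -0.06, -0.05 and -0.09 at 0.8, 6 and 12 h. All 3 of these were below 0, and none was called.

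Nop56, a core scaffold of the same particle, was brighter with NmU at 3 h once PBS replicate 4 was set aside. Its bright probe set (95109_at) gave 1090.3, 995.5, 1089.3 and 1488.6 with PBS and 1445.1, 1141.9 and 1202.1 with NmU. Replicate 4 was the highest of the 7, and the other 3 PBS arrays lay below all NmU arrays. The log2 fold change was 0.13 ± 0.11 over all arrays (limma adjusted p = 0.551) and 0.25 ± 0.10 without that array (limma adjusted p = 0.111), so it was not called either way. At 12 h it was 0.18 ± 0.11 (limma adjusted p = 0.56), with 1 PBS array (1204.9) among the NmU values of 1095.1 to 1215.8. The dim probe set (162433_f_at) lay between 17.3 and 34.9 and gave values of the opposite sign at 3 and 12 h (-0.08 and -0.26), none of them called.

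**Figure D3:**
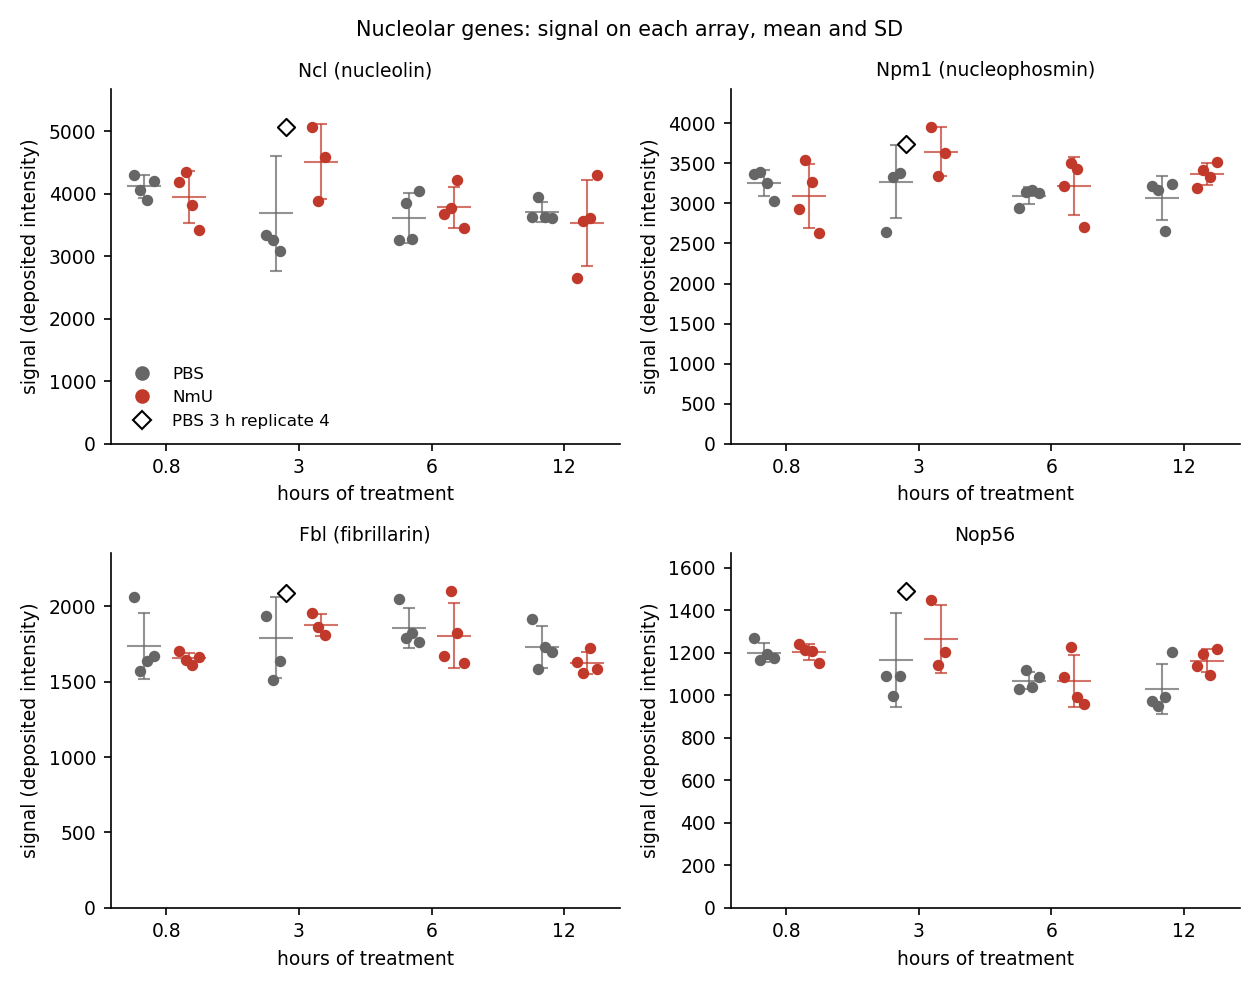
Signal (deposited intensity, linear axes from 0) of Ncl, Npm1, Fbl and the bright Nop56 probe set on each of 31 arrays against hours of treatment, with PBS in grey, NmU in red, the group mean and SD as bars and PBS 3 h replicate 4 as an open diamond. The diamond is the highest PBS array at 3 h in all 4 panels, and at the other times the PBS and NmU arrays overlap.

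Nolc1 and Bop1 completed the set. Nolc1 (95735_at) was dim, with group means from 28.3 to 44.3, and its log2 fold changes were -0.13, -0.13, 0.44 and -0.30, each with an SE from 0.38 to 0.41. At 12 h its NmU signals were 56.6, 6.7, 48.5 and 36.1, and the value of -0.30 rests on replicate 2, since the mean signals were 37.0 with NmU and 35.3 with PBS. These values give no direction for Nolc1.

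Bop1 (160878_at) at 6 h gave 333.3, 341.4, 306 and 313.7 with PBS and 389.3, 356.7, 348.4 and 351 with NmU. At 12 h it gave 304.9, 305.5, 311.1 and 327.5 with PBS and 357.9, 372.3, 348 and 335.9 with NmU. NmU was above PBS without overlap at both times, as for Myc, but the log2 fold changes were small (0.16 ± 0.11 and 0.18 ± 0.11) and were not called (limma adjusted p = 0.474 and 0.564). At 0.8 and 3 h the groups overlapped, with log2 fold changes of 0.06 and 0.02, and the 3 h value was 0.12 without PBS replicate 4 (limma adjusted p = 0.566). The dim Bop1 probe set (161599_i_at) had signals between 9.1 and 31.9, and its log2 fold changes of -0.23, 0.41, 0.17 and -0.03 each had an SE of 0.25 to 0.27. With the Gapdh ratio as a covariate, none of the 10 probe sets was called at 3 h, with or without PBS 3 h replicate 4, and over all arrays Npm1 had 0.06, Fbl 0.08, Nop56 (95109_at) 0.08, Max 0.17 and Bop1 (160878_at) -0.01. Without that array these were 0.10, 0.21, 0.25, 0.05 and 0.14 (limma adjusted p from 0.209 to 0.875).

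Whether nucleolar genes outside the 9 followed was read from 5 lists of ribosome biogenesis genes that hold none of them, 153 genes in all, of which 102 were on the array and 101 were tested. None was called by limma at 0.8 h, where Myc was not called either, and 7 had an unadjusted p under 0.05. Of all probe sets, 0.782% were called higher then. At 3 h, 19 were called higher and 0 lower, which is to be read against 4.44% of all probe sets called higher. At 6 h, 4 were called higher and 1 lower, beside 2.85% and 2.03% of all probe sets. At 12 h, where Myc was called, none was (12 at an unadjusted p under 0.05), beside 0.858% of all probe sets called higher and 0.404% lower. The median log2 fold change of the 101 was -0.00, 0.25, 0.13 and 0.12 at the 4 times, beside -0.04, -0.03, 0.02 and -0.02 over all probe sets tested. Above 0 were 81 of the 101 at 3 h and 74 at 12 h.

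These counts moved with single arrays and with the choice of fit. Without PBS 3 h replicate 4, 26 were called higher at 3 h, beside 4.98% of all probe sets in that fit, and 17 of them were among the 19. Leaving out a PBS array gave 10 (replicate 2) or 11 (replicate 3), and leaving out an NmU array gave 6 (replicate 1), 10 (replicate 2) or 9 (replicate 3). After scaling to a common median the count was 7, and with only the 2 groups compared in the fit it was 0. With the Gapdh ratio as a covariate it was 15 over all arrays and 17 without PBS 3 h replicate 4. The summed signal of 11 T helper markers also moved with the groups at 3 h, from 9008 to 10790 with PBS to 11100 to 12740 with NmU, and its part in these results was not tested. Of the 9 of these markers that were tested, 2 were called higher at 3 h (Zap70 and Gata3), beside 4.44% of all probe sets. Above 0 were 5 of the 9 with all arrays (median 0.15) and 4 without PBS 3 h replicate 4 (median -0.02). The sum therefore does not show that the markers rose together. Of 25 markers of other cell types, 11 were above the filter in median signal, with Col1a2 at 382.9, Cd14 at 70.9, Pecam1 at 67 and Cd79a at 61.1, and 1, Itgam, was at the floor on all 31 arrays. Their summed signal overlapped between NmU and PBS at each time (893.6 to 985.3 with NmU and 924.1 to 990.6 with PBS at 3 h). Of the 14 of them tested, 0 were called at 0.8 and 3 h, 2 higher at 6 h (Mpo and Cd68, both dim) and 1 higher at 12 h (Cd68). Of all probe sets, 2.85% were called higher at 6 h and 0.858% at 12 h. In bulk RNA, more cells of a type and more RNA per cell cannot be told apart.

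The large subunit assembly factors held most of the calls, 12 of 39 at 3 h, with a median log2 fold change of 0.29. The 4 with the lowest p were Rrs1, which helps to build the 5S particle into the large subunit, the GTPase Gtpbp4, the nucleolar protein Rsl1d1, and Nifk, a partner of Ki-67. Rrs1 signals at 3 h were 441.6, 401.5, 442.4 and 477.6 with PBS and 629.1, 584.3 and 578.6 with NmU. The groups lay far apart, PBS replicate 4 included, and the log2 fold change was 0.44 ± 0.08 (limma adjusted p = 3.52e-04). Rrs1 was also called at 6 h, at 0.41 ± 0.07 (limma adjusted p = 8.06e-04).

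Gtpbp4 rose by 0.45 ± 0.10 at 3 h and by 0.43 ± 0.09 at 6 h (log2, limma adjusted p = 0.00361 and 0.00572), and its effect at 3 h exceeded that at 0.8 h by 0.52 ± 0.14 (limma adjusted p = 0.0298). Rsl1d1 rose by 0.44 ± 0.10 and Nifk by 0.62 ± 0.15 at 3 h (limma adjusted p = 0.00434 and 0.00622). On leaving out PBS 3 h replicate 4, Rrs1, Gtpbp4, Rsl1d1 and Nifk had 0.48, 0.46, 0.52 and 0.75 and were still called. Among the 8 others called were Nop2 (0.33) and Pes1 (0.42), whose promoters are shown above, and Nmd3 (0.36). Nmd3 and Ddx24, an RNA helicase, were no longer called without PBS 3 h replicate 4 (limma adjusted p = 0.0669 and 0.114). At 6 h, Nmd3 was called with Rrs1 and Gtpbp4. Pes1 acts in 1 complex with Bop1, which at 3 h had 0.02 with all arrays and 0.12 without PBS replicate 4, where Pes1 had 0.44. With the Gapdh covariate over all arrays, Nmd3 had 0.34 at 3 h and was not called (limma adjusted p = 0.0685). With the covariate and without PBS 3 h replicate 4, Gtpbp4, Pes1 and Ddx24 were not called (limma adjusted p = 0.0646, 0.085 and 0.0857).

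Of the small subunit processome, 6 of 30 were called higher at 3 h, beside 4.44% of all probe sets, with a median of 0.27. With 1 array left out in turn the count was 2 to 8. Ltv1, a late factor of the small subunit, had signals of 61.6, 72.2, 79.4 and 70.6 with PBS and 114.9, 102.5 and 132 with NmU. It rose by 0.71 ± 0.17 (log2, limma adjusted p = 0.00671), without overlap, and this effect exceeded that at 0.8 h by 0.91 ± 0.23 (limma adjusted p = 0.0267). At 6 h its means were 76.7 with PBS and 76.3 with NmU, and the one gene of this list called then was Mphosph10, of the U3 snoRNP (0.88 ± 0.24, limma adjusted p = 0.0294). Imp4, of the U3 snoRNP, Utp4 and Rcl1 rose by 0.40, 0.40 and 0.42 (limma adjusted p = 0.0074, 0.011 and 0.0161). Leaving out PBS 3 h replicate 4, Ltv1 kept its value (0.71), and Imp4, Utp4 and Rcl1 had 0.41, 0.51 and 0.55. With the covariate as well, Ltv1 had 0.61 and was not called (limma adjusted p = 0.0856).

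The snoRNP and polymerase lists were counted in the same way, beside the same 4.44% of all probe sets called higher at 3 h. Of 5 further snoRNP genes, 1 was called at 3 h, the U3 protein Rrp9 (0.38 ± 0.12, limma adjusted p = 0.0483), with a list median of 0.26. That call was lost in 21 of the 31 fits that left out 1 array, and with a common median, no filter or only the 2 groups in the fit, but it held without PBS 3 h replicate 4 (0.44, limma adjusted p = 0.0242). By comparison, Nop58, the partner of Nop56, had 0.33 and was not called (limma adjusted p = 0.142). Of 18 RNA polymerase I genes, 0 were called at 3 h with a median of 0.09 (3 at an unadjusted p under 0.05). Without PBS 3 h replicate 4, 2 were called higher, beside 4.98% of all probe sets in that fit. At 6 h, Polr1a, the largest subunit, was called lower, with signals of 371, 424, 353.3 and 354.7 in PBS and 234.1, 259.7, 234 and 243.1 with NmU. The groups did not overlap, and the log2 fold change was -0.63 ± 0.12 (limma adjusted p = 0.00136). Of all probe sets, 2.03% were called lower at 6 h. The Polr1a call came from its brightest probe set. It was lost with gene means over probe sets, where 0 ribosome biogenesis genes were called lower at 6 h. None of 9 other nucleolar proteins was called at any time, and 2 had an unadjusted p under 0.05 at 3 h.

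**Figure D4:**
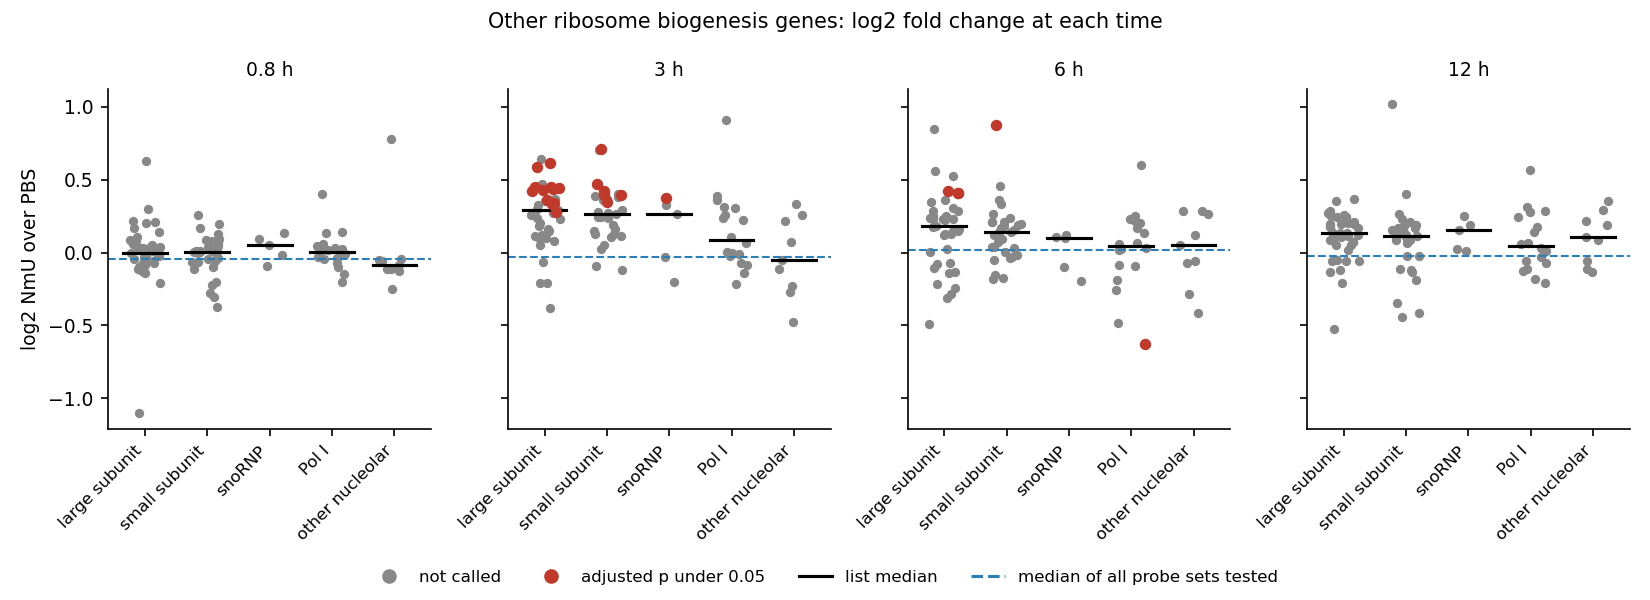
Log2 fold change of NmU over PBS (y axis) for the 101 other ribosome biogenesis genes in 5 lists (x axis) at the 4 times (panels, all arrays); points are genes, red points have an adjusted p under 0.05, black bars are list medians and the dashed line is the median of all probe sets tested. The 19 genes called higher at 3 h lie in the large subunit, small subunit and snoRNP lists, and no gene is red at 0.8 or 12 h.

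Myc targets outside the nucleolus were counted in the same way. Of 38 tested, 3 were called higher at 3 h, 2 at 6 h and 0 at 0.8 and 12 h, with medians of -0.04, 0.10, 0.07 and 0.12. All probe sets tested had medians of -0.04, -0.03, 0.02 and -0.02, and 4.44% and 2.85% of them were called higher at 3 and 6 h. The list's counts without PBS 3 h replicate 4 were 1, 4, 3 and 0 of 39 in order of time. In that fit 4.98% and 3.59% of all probe sets were called higher at 3 and 6 h. The 3 at 3 h were Ccnd2, the cyclin D2 that drives entry into the cell cycle (1.02 ± 0.16, limma adjusted p = 8.47e-05), Bcat1, an enzyme of branched-chain amino acid metabolism (0.67 ± 0.12, limma adjusted p = 2.28e-04), and Slc3a2, the heavy chain of amino acid transporters (0.53 ± 0.16, limma adjusted p = 0.0326). At 3 h, Ccnd2 signals were 545.8, 489, 452 and 417.2 with PBS and 982.4, 943.2 and 962.5 with NmU, with no overlap, and PBS replicate 4 was the lowest. Without it, Ccnd2 had 0.96, Bcat1 0.76 and Slc3a2 0.67, all called. With the covariate over all arrays, Slc3a2 had 0.40 and was not called (limma adjusted p = 0.12). Of 6 tested genes that Myc is known to lower, 0 were called at any time by limma, with 1, 1, 2 and 2 at an unadjusted p under 0.05 in order of time. Without PBS 3 h replicate 4, Ndrg1 was called higher at 0.8 h (0.93) and at 6 h (0.79), with limma adjusted p of 0.00637 and 0.0105.

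Likeness to Myc was measured as Pearson's r over the 8 group means on the log2 scale, as a description, since these means share arrays and scaling. Among 2566 genes whose group means spanned at least 0.5, the 5 most like Myc were Mx2 (0.919), Irgm1 (0.89), Asap1 (0.869), Nxf1 (0.866) and Snhg1 (0.859). Of the probe sets studied here, Bop1 was most like Myc (160878_at, 0.849), followed by Nop56 (95109_at, 0.631) and Max (0.61), whereas Ncl (0.251) and Npm1 (0.215) were not alike and Fbl ran the other way (-0.687). The group means of Bop1, Max and Fbl spanned only 0.24, 0.18 and 0.21 on that scale, against 1.15 for Myc.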

How the data were processed

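The deposited values were probe set intensities on a linear scale from 1-colour arrays. How the authors scanned, summarised and scaled them is not stated in the labels. Every array had a mean of 150.09 to 150.11 once 2% was trimmed from each end, so these intensities were taken as already scaled and were not scaled again. Total signal per array is thereby assumed equal, and the number of arrays limits the precision. Median signals were 34.4 to 43.3.

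Groups and replicate numbers came from the sample titles. Intensities below 5.8 (the 20th percentile) were raised to it and log2 was taken, which understates changes of dim transcripts. Tests ran on probe sets whose mean on that scale was above 20.2 (the 40th percentile) in 1 or more groups, without the 66 array controls. Of the remaining 12422, 10833 were paired with 1 gene symbol, 396 with several and 1193 with none; 10817 of the 10833 matched a RefSeq gene table of GRCm38.p6, which changed 0 symbols. A gene in a list was represented by its brightest probe set.

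All 31 arrays entered 1 linear model with 8 group means (lmFit and eBayes of limma 3.58.1 in R 4.3.3, with 23 degrees of freedom from residuals and 2.72 from the prior). P-values were two-sided and adjusted over all 7930 probe sets; errors of log2 fold changes are SE, those of signals SD. The procedure was run on simulated data with independent noise on every array. Those data held no array like PBS 3 h replicate 4 and no shift in RNA quality, so the run does not bear on either. Same-numbered NmU and PBS arrays were not treated as pairs in the main fit. Of 15 such pairs, 5 had deviations correlated above 0.1 (range -0.224 to 0.204). In 8 of the 15, the NmU array of the same number was the best match of the PBS array. This held for every pair at 0.8 h and for no pair at 12 h. How many such matches chance would give was not computed. These values do not settle whether the arrays are pairs, and the fit with a replicate block is given below. The members and gene lists were chosen with earlier results of these data known. All probe sets of the 9 genes are named. Of each list, up to 4 genes with the lowest p are named with their values, and Nmd3, Nop2, Pes1, Ddx24, Mphosph10 and the cell type markers were named after their values were seen. Alternatives were another floor, a pseudocount of 16, no filter, other scalings, smaller fits, a replicate block, each array left out in turn, gene means over probe sets, and a Gapdh ratio covariate added after the data were seen.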

Additional observations from a re-analysis of the deposited data

Results flagged for a closer look

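In 189 groups of 4 arrays (10 probe sets of Myc and the nucleolar genes and 17 named list genes), the array at 1 end was compared with the rest by Dixon's criterion, which chance meets in about 1 of 20 groups. It was met in 21 of the 189, and in 11 of the 70 groups of the 10 probe sets. PBS 3 h replicate 4 met it for Myc (379.9, the next array 208.9), for Ncl (5066, the next 3339) and for Mxd4 (182.7, the next 267.8).

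Of the nucleolar genes, Ncl in PBS 12 h replicate 2 (3956, the others 3613 to 3632) and Nop56 in PBS 12 h replicate 4 (1205, the next 993.5) were high. Npm1 was low in PBS 6 h replicate 1 (2943, the next 3132) and in PBS 12 h replicate 3 (2660, the next 3168). The dim Nop56 probe set was high in PBS 3 h replicate 1 (32.4), PBS 12 h replicate 2 (31.5) and NmU 12 h replicate 4 (31.3). Nolc1 was low in PBS 3 h replicate 1 (28.9) and in PBS 12 h replicate 3 (31.6), by a few units in each case.

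Among the list genes, Ltv1 was high in PBS 0.8 h replicate 2 (138.3, the next 96.3) and low in PBS 12 h replicate 3 (64), and Imp4 was low in PBS 0.8 h replicate 2 (269.9). Gtpbp4 was low in PBS 6 h replicate 1 (285.9, the next 304.4), Mxd3 was low in PBS 0.8 h replicate 3 (130.3), and Polr1a was high in NmU 12 h replicate 2 (360.9). Fbxw7 was high in NmU 12 h replicate 4 (54.6), and NmU 6 h replicate 2 was high for Zbtb17 (15.7) and for Ccnd2 (895.8, the next 722.8).

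The effect of NmU differed between 3 and 0.8 h for 5 list genes by the limma test of the difference, adjusted over all probe sets: by 0.52 for Gtpbp4, -1.003 for Mxd3, 1.07 for Ccnd2, 0.68 for Bcat1 and 0.91 for Ltv1 on the log2 scale. It did so for none of the 10 probe sets of Myc and the nucleolar genes.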

How the results depend on the processing

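The rise of Myc at 12 h passed the test under every alternative run, and no called value turned its sign; 89 of 2793 alternative values for the 10 probe sets changed sign where neither fit called them. Of the 10 probe sets, the count called higher at 3 h was 0 to 2 and at 6 h 0 to 1 when 1 array was left out, the count called for time in PBS was 0 to 1, and the adjusted p of Myc for that time course was 0.00423 to 0.52. The Myc log2 fold change was then 0.21 to 0.55 at 3 h and 0.44 to 0.65 at 6 h, called at 6 h in 4 of 31 such fits (on leaving out replicate 1 or 4 of PBS 3 h, replicate 1 of NmU 3 h or replicate 2 of NmU 6 h). Myc was also called at 6 h with 16 added to each value (0.49, 1 probe set called), with gene means over probe sets (0.53, adjusted p = 0.0495) and with the Gapdh covariate (0.54; 0.53 without PBS 3 h replicate 4; 1 probe set in each). That covariate without that array gave 1 probe set, Myc, called for time in PBS (adjusted p = 0.0181), and 7 other ribosome biogenesis genes higher and 2 lower at 6 h. With the replicate block, 2 probe sets were called at 3 h (Myc at 0.55) and 1 at 6 h (Myc at 0.53). PBS 3 h replicate 4 has no NmU array of its number, so this fit gives it no weight, and its 3 h values equal those without that array. The labels tie these arrays by number alone. In deviations from the group means, 8 of 15 PBS arrays correlated best with the NmU array of their own number. Other ribosome biogenesis genes called higher at 3 h were 6 to 26 with 1 array left out, 7 with a common median and 0 with only 2 groups in the fit; lower ones were 0 to 1. At 6 h the higher ones were 2 to 5, and 0 with a common median or with only 2 groups, and the lower ones 1 to 2, and 0 with gene means over probe sets. At 12 h, 1 was called higher with a floor at the 40th percentile and with no filter. The cause of these shifts was not tested. A smaller fit also holds fewer arrays. Dim probe sets (Nolc1 and the second ones of Nop56 and Bop1) limit what can be said of those genes.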
